A study of Mus musculus with 24 samples.

Results

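The neural Sox genes described here are 9 of the 49705 gene entries measured by RNA-seq in a time course of mouse optic vesicle (OV) organoids. They are the SoxB1 genes Sox1, Sox2 and Sox3, the SoxB2 genes Sox14 and Sox21, the SoxC genes Sox4, Sox11 and Sox12, and the SoxE gene Sox9. The genes were chosen by name. The choice was also made knowing that Sox21 was higher in one sorted population on day 4 and in the other on day 5, so its values in sorted cells of days 4 and 5 are given as a description, with no test of the difference between the populations or between those days. Each of the 9 genes had 10 or more normalized counts in 3 or more libraries, and all were among the 21005 genes tested.

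Every organoid was grown from Rx-GFP K/I EB5 cells, mouse embryonic stem cells in which GFP was knocked into the Rax locus, so all groups carried the reporter and none received another treatment. Live cells were collected on days 0, 1, 2 and 3, and on days 4 and 5 the live cells were sorted by flow cytometry into a GFP-positive and a GFP-negative population (the gates), which gave 8 groups of 3 biological replicates. Each replicate was a pool of 24 organoids seeded with 4500 cells each, with Matrigel at 2% from day 1. The reporter marks cells that express Rax, and by the study's methods the gates were set wide, so that the GFP-negative sample also took in cells with weak GFP. A difference in a bulk sample cannot tell fewer cells of a type apart from less RNA per cell.

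Sox proteins bind DNA through a high-mobility-group (HMG) box and act with partner factors. The SoxB1 proteins are activators that keep pluripotent cells and neural progenitors undifferentiated, with Sox2 working beside Oct4 (Pou5f1) in stem cells, and SoxB2 proteins are repressors found in many of the same progenitors. SoxC proteins act mostly as progenitors turn into neurons, and in the eye they take part in optic fissure closure and ganglion cell formation. Sox9 marks later neural and retinal progenitors, glia, neural crest and cartilage.

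The 9 genes share the HMG box, and the likeness of this stretch is printed because reads from it are among those that could be shared between members. In the mouse transcripts (mm10, GENCODE M21), 60 bases (20 codons) from the start of the box's conserved block are shown 5′ to 3′ on the coding strand, with capitals for the 29 bases that were the same in all 9 genes.
Sox1 (chr8:12396517-12396576, + strand): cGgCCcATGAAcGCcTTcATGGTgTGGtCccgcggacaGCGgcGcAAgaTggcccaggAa
Sox2 (chr3:34650548-34650607, + strand): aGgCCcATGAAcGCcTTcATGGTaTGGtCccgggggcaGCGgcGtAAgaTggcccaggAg
Sox3 (chrX:60892936-60892995, - strand): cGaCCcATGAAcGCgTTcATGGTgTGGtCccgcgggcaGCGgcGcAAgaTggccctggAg
Sox14 (chr9:99875598-99875657, - strand): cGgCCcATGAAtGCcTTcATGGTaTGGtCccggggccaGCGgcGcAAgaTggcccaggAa
Sox21 (chr14:118235549-118235608, - strand): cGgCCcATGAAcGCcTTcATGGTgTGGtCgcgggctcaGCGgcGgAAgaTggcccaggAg
Sox4 (chr13:28952782-28952841, - strand): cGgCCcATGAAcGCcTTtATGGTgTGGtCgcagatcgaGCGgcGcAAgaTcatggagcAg
Sox11 (chr12:27342199-27342258, - strand): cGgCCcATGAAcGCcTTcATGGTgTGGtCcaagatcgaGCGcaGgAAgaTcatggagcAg
Sox12 (chr2:152397516-152397575, - strand): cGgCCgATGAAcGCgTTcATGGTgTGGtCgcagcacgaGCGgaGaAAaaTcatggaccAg
Sox9 (chr11:112782903-112782962, + strand): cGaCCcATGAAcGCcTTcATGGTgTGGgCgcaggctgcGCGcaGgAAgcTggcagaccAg
Over 237 bases (79 codons) of the box, identity was 84.0% to 89.5% among the SoxB genes, 84.4% to 89.5% among the SoxC genes and 66.7% to 73.0% between a SoxB and a SoxC gene. Sox9 was 67.9% to 73.0% identical to the others.

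Few stretches of 31 bases, the default word of the aligner, occurred in more than 1 member. Such shared words made up at most 0.888% of a member's transcript (Sox2), and none of Sox14 or Sox9. The longest stretch shared by a pair was 48 bases of the HMG box in Sox4 (chr13:28952749-28952796, - strand) and Sox11 (chr12:27342166-27342213, - strand), shown because no read that lies within it can tell them apart.
Shared stretch of Sox4 and Sox11: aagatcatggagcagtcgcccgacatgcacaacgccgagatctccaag
Not every shared stretch lay within the box. One of 45 bases in Sox1 (chr8:12396727-12396771, + strand) and Sox3 (chrX:60892741-60892785, - strand) ran past its end.
Overlap on the opposite strand was wider, and lay outside the coding sequences. The antisense long non-coding RNA Gm4675 (chr14:118236232-118261199, + strand) shared 685 words (18.2%) with Sox21, and Gm26735 (chr13:28943048-28951671, + strand) shared 2586 words (54.3%) with Sox4. None of these words was in the coding sequence of Sox21 or Sox4. By the study's methods the index was made of Ensembl coding regions and non-coding RNAs, and neither whether it held untranslated ends nor whether counting used strand is given in the sources used here. If it held those ends and strand was not used, reads there cannot be told apart from those of these partners.

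Libraries held 39849111 to 51587535 normalized counts, and 1 read was worth about 0.800 to 1.39 of them, so a value near 10 rests on about that many reads. Day 0 replicate 1 stood apart: its rank correlation with the other day 0 libraries was 0.953 to 0.954, against 0.979 to 0.993 for the 22 other pairs of replicates. Changes of the 9 genes from day 0 are therefore given with and without it where they passed the test. In sorted cells the label fitted its marker: Rax was at 975 ± 38.4 normalized counts in day 4 GFP-negative and 9559 ± 436 in day 4 GFP-positive cells (mean ± SD, n = 3 here and below), and at 447 ± 60.6 and 8608 ± 463 on day 5. Changes were tested with limma on log2(normalized count + 1) in 1 fit of all 24 libraries, and are given as log2-fold-changes ± standard error. A gene passed the test at a Benjamini-Hochberg adjusted p under 0.05 and was called at the study's stricter thresholds, an adjusted p under 0.001 with an absolute log2-fold-change above 1.5.

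**Figure D1:**
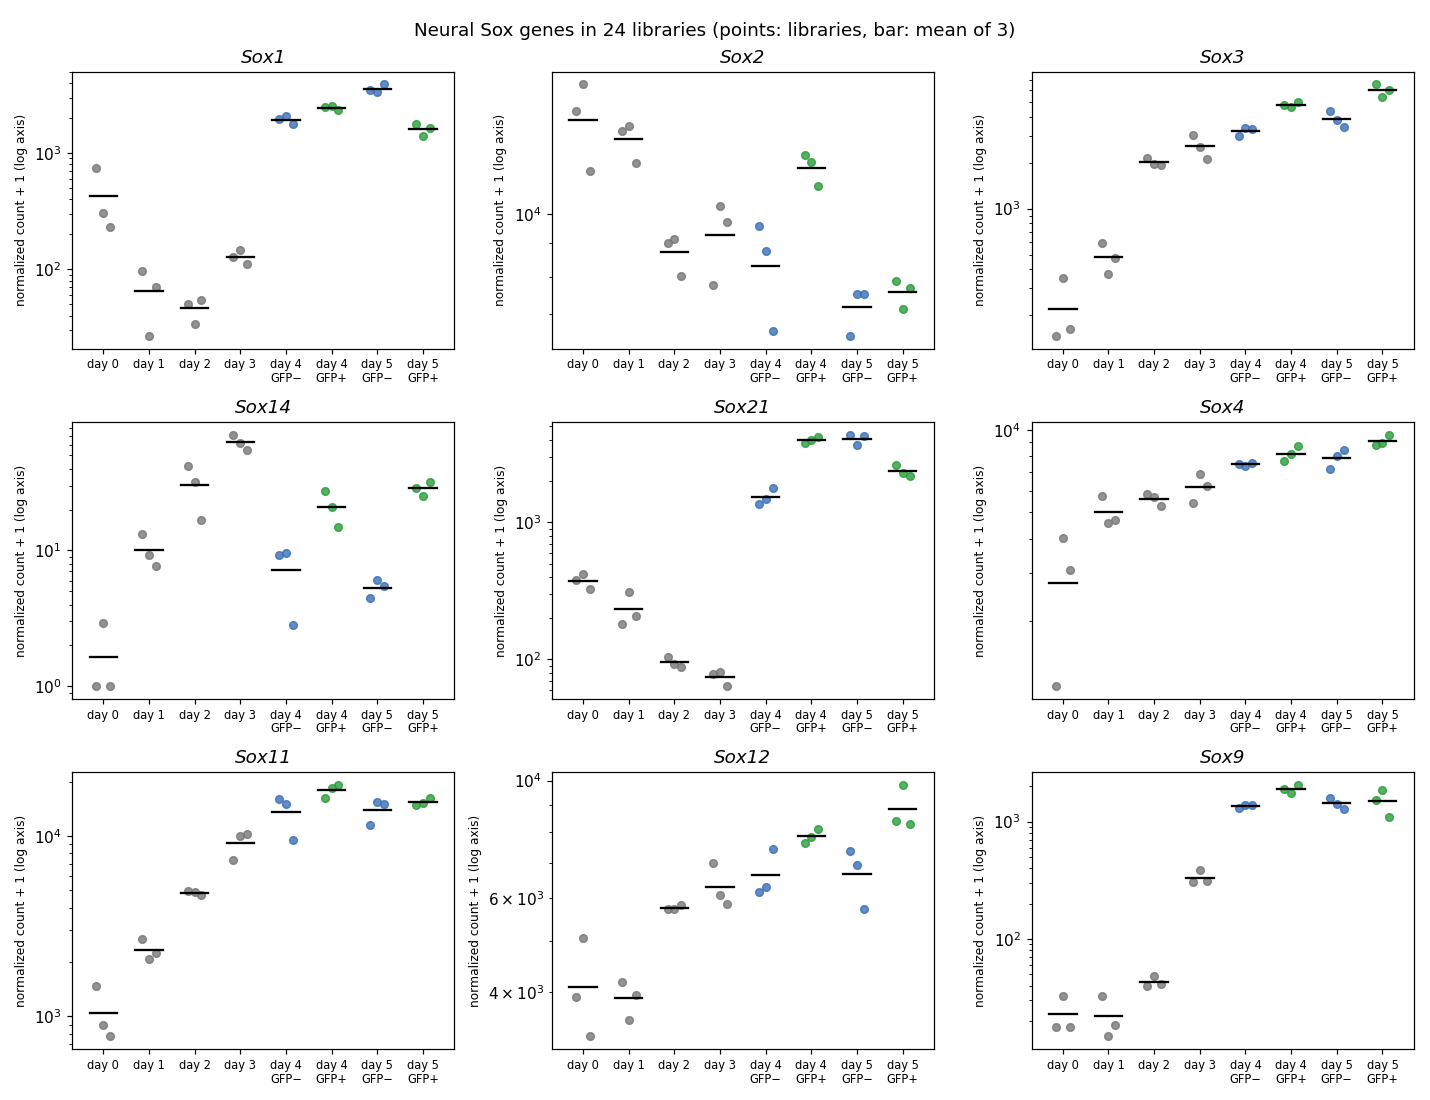
Normalized count plus 1 (log axis, which begins above 0 in each panel) of each of the 9 Sox genes in 24 libraries; points are libraries, bars means of 3, grey unsorted days 0 to 3, blue GFP-negative and green GFP-positive cells of days 4 and 5. Sox1, Sox21 and Sox9 stand far higher in every sorted library than on day 3, and Sox21 is higher in the green points on day 4 and in the blue points on day 5.

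The SoxB1 genes followed 3 different courses. Sox2 was high throughout and lower at the end than at the start, Sox3 climbed from a low level on day 0, and Sox1 was low from day 1 to day 3 and high in sorted cells. The plot of values by library shows these courses side by side.

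Sox2 (ENSMUSG00000074637, chr3:34650405-34652461, + strand, 1 exon), the pluripotency and neural progenitor factor, held 14414, 15854 and 11645 normalized counts in the 3 libraries of day 0 and 13453, 13680.2 and 11966 on day 1. The libraries of days 0 and 1 overlapped. On day 2 they held 9025, 9158 and 8004, all below day 1, a log2-fold-change of -0.58 ± 0.14 (adjusted p = 0.00547). Day 3 brought 7772, 10300.4 and 9726, a range that spanned that of day 2. From day 0 to day 3 Sox2 fell by 0.59 (0.56 without day 0 replicate 1), with an adjusted p of 0.00145, and of 0.0703 when only the libraries of those days were fitted.

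Sox3 (ENSMUSG00000045179, chrX:60891366-60893430, - strand, 1 exon), the X-linked member that is active in early neuroectoderm, was at 145, 352 and 162 normalized counts on day 0 and 596, 371 and 471 on day 1. Day 2 libraries held 2126, 1965 and 1926, so that each of these groups lay wholly above the one before. The step from day 0 to day 1 was 1.22 ± 0.23 (0.98 without day 0 replicate 1) and the next step, to day 2, came to 2.09 ± 0.23, with adjusted p = 0.00127 and 2.34e-06. Only the later step was called. Day 3 values of 3022, 2524 and 2112 overlapped those of day 2 (adjusted p = 0.363). Over days 0 to 3 Sox3 rose by 3.64 ± 0.23 (adjusted p = 6.48e-11), or by 3.40 without day 0 replicate 1.

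Sox1 (ENSMUSG00000096014, chr8:12395295-12400126, + strand, 1 exon), commonly used as the earliest marker of committed neural cells, was at 738, 306 and 231 normalized counts in the libraries of day 0. Day 0 replicate 1 held the highest of these values. The later unsorted libraries held 95.8, 25.7 and 69.3 on day 1, 49.3, 33.2 and 53.5 on day 2 and 126, 146 and 110.4 on day 3. Each day 0 library lay above each of these. From day 0 to day 1 Sox1 fell by 2.73 on the log2 scale (adjusted p = 4.05e-05), and by 2.24 without day 0 replicate 1 (adjusted p = 7.94e-05). It then rose by 1.49 ± 0.36 from day 2 to day 3 (adjusted p = 0.00829), a step that missed the threshold without day 2 replicate 2 (adjusted p = 0.0515). Between days 0 and 3 it fell by 1.55 on the log2 scale, or by 1.06 without day 0 replicate 1 (adjusted p = 0.00147 and 0.0101).

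The SoxB2 genes moved in opposite ways before day 4. Sox14 (ENSMUSG00000053747, chr9:99874106-99876170, - strand, 1 exon in its longest transcript), known from interneurons of the midbrain, hindbrain and spinal cord, was listed at 0, 1.95 and 0 normalized counts in the 3 day 0 libraries. Values reached 12.2, 8.26 and 6.7 on day 1, 40.6, 30.8 and 15.8 on day 2 and 70.2, 60.5 and 53.5 on day 3. Each group lay above the one before, at levels that rest on few reads. Fitted steps were 2.77 ± 0.48 (adjusted p = 0.000615) and 1.52 ± 0.48 (adjusted p = 0.0327), and the size of the former depends on the added 1, since 2 of 3 day 0 libraries were at 0. The call of the day 1 step was kept only without day 0 replicate 2 among 6 fits that left out 1 library of those days, and in the other 5 the step passed without being called (adjusted p = 0.00233 without day 0 replicate 1, and up to 0.00543). The day 2 step passed in 2 of 6 fits without 1 library of those days, those without day 1 replicate 1 or day 2 replicate 3 (adjusted p up to 0.159 in the rest). From day 0 to day 3 Sox14 rose by 5.44 ± 0.48 (adjusted p = 9.72e-09), or by 5.18 without day 0 replicate 1.

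Sox21 (ENSMUSG00000061517, chr14:118233232-118237030, - strand, 1 exon), which counteracts SoxB1 proteins in progenitors, was present in stem cells at 378, 416 and 323 normalized counts. It then fell, to 181, 311 and 205 on day 1, 103, 92.1 and 87.7 on day 2 and 77.0, 79.9 and 62.7 on day 3. No library of any of these days overlapped with the day before. Log2-fold-changes were -0.71 ± 0.16 (adjusted p = 0.00704) and -1.25 ± 0.16 (adjusted p = 1.96e-05) for days 1 and 2. The day 3 step of -0.37 ± 0.16 did not pass (adjusted p = 0.149), and the day 1 step was -0.70 without day 0 replicate 1 (adjusted p = 0.0118) and did not pass without day 1 replicate 1 (adjusted p = 0.0571). Between days 0 and 3 Sox21 fell by 2.33 on the log2 scale (adjusted p = 3.83e-10), or by 2.32 without day 0 replicate 1.

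All 3 SoxC genes were abundant by day 3, and they reached that point by steps of unequal size. Sox11 (ENSMUSG00000063632, chr12:27334264-27342574, - strand, 1 exon), which promotes neuronal differentiation, was at 1464, 894 and 772 normalized counts on day 0, 2684, 2089 and 2234 on day 1, 4935, 4896 and 4708 on day 2 and 7330.1, 9989 and 10226 on day 3. Its groups did not overlap on any of these days. Sox11 rose by 1.21, 1.06 and 0.91 at the 3 steps, with adjusted p of 0.000524, 0.000997 and 0.00503, and by 3.18 ± 0.21 from day 0 to day 3 (3.45 without day 0 replicate 1). Without that library its day 1 step was 1.48 (adjusted p = 1.13e-05).

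Sox4 (ENSMUSG00000076431, chr13:28948919-28953713, - strand, 1 exon), the closest relative of Sox11 by sequence here, held 1149.6, 4019 and 3077 normalized counts on day 0. Day 0 replicate 1 was the lowest of these. Values were 5732, 4556 and 4671 on day 1, 5838, 5691 and 5284 on day 2 and 5389.5, 6882 and 6254 on day 3, with every day 1 library above every day 0 library. The day 1 step was 1.03 ± 0.26 (adjusted p = 0.0139) and shrank to 0.50 without day 0 replicate 1 (adjusted p = 0.00712). It did not pass without day 1 replicate 1 (adjusted p = 0.0674). From day 0 to day 3 the rise was 1.34, or 0.81 without day 0 replicate 1.

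Sox12 (ENSMUSG00000051817, chr2:152393611-152398063, - strand, 1 exon in its longest transcript), the SoxC member with the broadest known expression, changed least of the 3. Its libraries held 3918, 5048 and 3298 normalized counts on day 0, 4171, 3549 and 3951 on day 1, 5721, 5721 and 5839 on day 2 and 6990.1, 6082 and 5845 on day 3. Days 0 and 1 overlapped, and day 2 lay above both. Sox12 rose by 0.57 ± 0.13 from day 1 to day 2 (adjusted p = 0.00447), while the steps on either side did not pass. From day 0 to day 3 it rose by 0.64 ± 0.13 (adjusted p = 0.000454), or by 0.62 without day 0 replicate 1.

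Sox9 (ENSMUSG00000000567, chr11:112782224-112787760, + strand, 3 exons) was low in stem cells, at 16.8, 31.6 and 16.9 normalized counts on day 0 and 31.6, 13.8 and 17.3 on day 1. It held 39.0, 47.1 and 40.4 on day 2 and 303, 382 and 310.1 on day 3. Sox9 rose by 1.06 ± 0.25 at the day 2 step (adjusted p = 0.00555) and by 2.94 ± 0.25 at the day 3 step (adjusted p = 2.12e-07). On the scale of means, day 3 was 7.87-fold above day 2, and this step alone of the 9 genes was called from day 2 to day 3. Without day 1 replicate 2 the day 2 step lay at the threshold (adjusted p = 0.05). Over days 0 to 3 the rise of Sox9 was 3.92 ± 0.25 (adjusted p = 9.3e-11), or 3.78 without day 0 replicate 1.

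Counted over the members, 6 of 9 passed the test from day 0 to day 1 (4 higher, 2 lower), against 10.0% of all genes, and 2 were called (Sox1 and Sox14), against 0.738%. Without day 0 replicate 1 the same 6 passed and 1 was called (Sox1). When only the libraries of days 0 and 1 were fitted, none of the 9 passed, the 6 having adjusted p of 0.127 to 0.439. From day 1 to day 2, 7 of 9 passed (5 higher, 2 lower) against 16.6%, and 1 was called (Sox3) against 1.47%. From day 2 to day 3, 3 of 9 passed, all higher, against 14.4%, with 1 called (Sox9) against 1.00%. Over the whole interval from day 0 to day 3 all 9 passed (6 higher, 3 lower) against 43.6%. Without day 0 replicate 1 all 9 still passed and the same 5 were called, and in a fit of days 0 and 3 alone Sox2, Sox4 and Sox12 did not (adjusted p = 0.0703, 0.0663 and 0.056). The 5 called members were Sox3, Sox14, Sox11 and Sox9, which were higher, and Sox21, which was lower, against 12.0% of all genes. The median change of the members from day 0 to day 3 was 1.34, and that of all genes was -0.03. Markers of other cells moved over the same interval. Of 8 pluripotency markers 7 fell and none rose, with summed levels of 163432 to 199339 normalized counts on day 0 and 49839 to 66779.6 on day 3, and of 6 mesoderm markers 5 rose and none fell (694 to 953 and 2939 to 3306), against 21.1% of all genes higher and 22.6% lower. The part of such cells in the changes of the Sox genes was not tested.

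**Figure D2:**
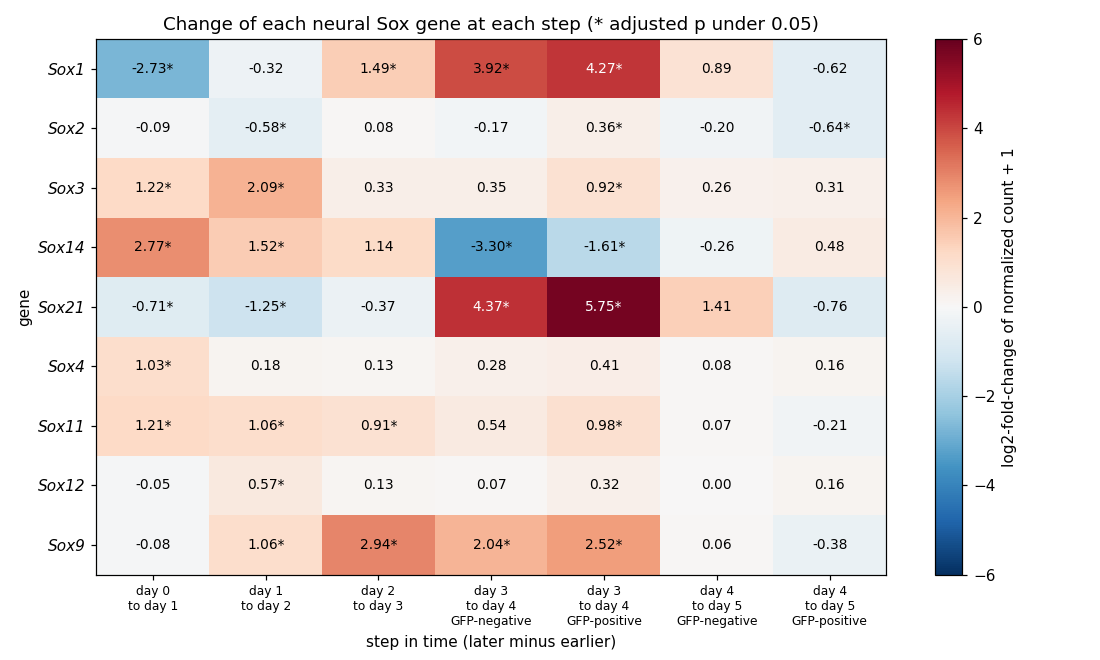
Log2-fold-change of each of the 9 Sox genes (rows) at each step in time (columns), from blue (lower at the later time) to red (higher), with the value in each cell and an asterisk where the adjusted p was under 0.05; Sox21 between days 4 and 5 carries no asterisk because it is a description. The most intense red cells are those of Sox21 (5.75 and 4.37) and Sox1 (4.27 and 3.92) from day 3 to sorted day 4 cells, the most intense blue ones those of Sox14 from day 3 to day 4 GFP-negative cells (-3.30) and Sox1 from day 0 to day 1 (-2.73), and Sox4 and Sox12 stay pale after day 2.

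The step from day 3 to sorted day 4 cells held the largest changes of Sox1 and Sox21. Sox1 values were 2490.1, 2551 and 2336 normalized counts in day 4 GFP-positive and 1968, 2076 and 1781 in day 4 GFP-negative cells. Mean levels were 19.3-fold and 15.2-fold those of day 3, log2-fold-changes of 4.27 ± 0.36 (adjusted p = 5.82e-09) and 3.92 ± 0.36 (adjusted p = 1.3e-07). Sox1 thus rose in both populations, and the same day 3 libraries served in both comparisons.

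Sox21 reached 3806, 3946 and 4191 normalized counts in the GFP-positive and 1367, 1483 and 1768 in the GFP-negative cells of day 4. Every one of these libraries stood far above the highest day 3 value. Its log2-fold-changes from day 3 were 5.75 ± 0.16 (adjusted p = 5.35e-16) and 4.37 ± 0.16 (adjusted p = 2.44e-13), or 54.4-fold and 21-fold on the scale of means. Both were the largest rises among the 9 genes at that step, and the gene had been at its lowest on day 3.

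Sox9 held 1892, 1767 and 2057 normalized counts in day 4 GFP-positive and 1294, 1392 and 1394 in day 4 GFP-negative cells, against 332 on average on day 3. It rose by 2.52 ± 0.25 (adjusted p = 6.3e-08) and by 2.04 ± 0.25 (adjusted p = 5.9e-06). Of 6 neural crest markers 3 rose and 1 fell from day 3 to day 4 GFP-positive cells (median 1.66), against 17.1% and 20.9% of all genes, and 5 rose and 1 fell to GFP-negative cells (median 2.41), against 9.49% and 9.01%. The 1 that fell was Foxd3, also a stem cell gene, at 2509.6 ± 165 normalized counts on day 3, and with it the summed level went from 2539.6 to 2864 on day 3 to 407 to 558 and 1506 to 1970.4, against the sign of the medians. Of 4 cartilage markers Col2a1 alone rose in either gate, while Acan and Matn1 fell to the GFP-positive and Acan to the GFP-negative gate. The shares of all genes are those just given. The part of such cells in the rise of Sox9 was not tested.

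Sox14 was lower after day 3, at 26.3, 19.8 and 13.9 normalized counts in the GFP-positive and 8.22, 8.66 and 1.82 in the GFP-negative cells of day 4, all below the day 3 libraries. It fell by 3.30 on the log2 scale in GFP-negative cells (adjusted p = 3.78e-05) and by 1.61 in GFP-positive cells (adjusted p = 0.0109). The latter did not pass without day 4 GFP-positive replicate 3 (adjusted p = 0.0567).

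The other 5 members changed less at this step. Sox3 rose by 0.92 ± 0.23 (adjusted p = 0.00277) and Sox11 by 0.98 ± 0.21 (adjusted p = 0.000622) in GFP-positive cells. Sox2 was 0.36 higher there (adjusted p = 0.0469), a step that, of 6 fits without 1 library of those groups, passed only without day 3 replicate 2 (adjusted p up to 0.233 in the rest). Changes of 0.41 for Sox4 and 0.32 for Sox12 did not pass (adjusted p = 0.239 and 0.0607). Both passed without day 0 replicate 1 (adjusted p = 0.00313 and 0.0433), and Sox12 passed without day 3 replicate 1 (adjusted p = 0.0391). In GFP-negative cells none of the 5 passed, the change of Sox11 being 0.54 (adjusted p = 0.0762, 0.013 without day 4 GFP-negative replicate 3 and 0.0181 without day 0 replicate 1).

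In all, 7 of 9 members passed from day 3 to day 4 GFP-positive cells (6 higher, 1 lower) against 37.9% of all genes, and 3 were called (Sox1, Sox21 and Sox9) against 10.7%. From day 3 to day 4 GFP-negative cells 4 passed (3 higher, 1 lower) against 18.5%, and the same 4 (Sox1, Sox14, Sox21 and Sox9) were called against 2.88%. The members had a median change of 0.92 for the GFP-positive and 0.35 for the GFP-negative gate, and all genes one of -0.01 and -0.02. At the same step all 8 pluripotency markers fell to the GFP-positive gate and 6 of 8 to the GFP-negative gate. Of 6 mesoderm markers 4 fell to the former and 5 rose to the latter, and the part of such cells was not tested.

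Between the gates of day 4 all members pointed the same way, most of them by small amounts. For each of the 9 genes all 3 GFP-positive libraries of day 4 lay above all 3 GFP-negative libraries, Sox21 among them by the choice of genes. Of all genes 17.8% lay that way. After quantile normalization between libraries, Sox4 and Sox11 overlapped and 7 of 9 did not.

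Sox2 was 1.42-fold higher in GFP-positive cells of day 4, at 12316, 12008 and 11038 against 9581, 8752 and 6588 normalized counts. The lowest GFP-negative value belonged to replicate 3. This difference of 0.52 ± 0.14 passed (adjusted p = 0.0111), and it was 0.36 without that library (adjusted p = 0.0884).

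Sox14 was 3.21-fold higher in the GFP-positive gate on day 4 and 6.4-fold higher on day 5, when its libraries held 27.9, 24.0 and 30.9 against 3.46, 5.04 and 4.43 normalized counts. Its gate differences were 1.69 ± 0.48 (adjusted p = 0.0176) and 2.43 ± 0.48 (adjusted p = 0.000784). The day 4 difference did not pass without day 4 GFP-negative replicate 3 or without GFP-positive replicate 1 or 2 (adjusted p up to 0.129). The call on day 5 was lost in each of 6 fits without 1 of its libraries, though the difference still passed in each (adjusted p = 0.00268 to 0.00557).

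Sox3 held higher values in every GFP-positive library than in the GFP-negative libraries of its day. On day 4 the gates held 4754, 4646 and 4948 against 2985, 3378 and 3322 normalized counts, and on day 5 6496, 5379 and 6009.9 against 4385, 3820.2 and 3436. The gate differences of 0.57 ± 0.23 and 0.62 ± 0.23 did not pass in the fit of all libraries (adjusted p = 0.107 and 0.0713). They passed when only the libraries of the day were fitted (adjusted p = 0.00237 and 0.0111) and without day 0 replicate 1 (adjusted p = 0.0468 and 0.0287).

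Sox21 was on opposite sides on the 2 days. On day 4, by the values given above, GFP-positive cells had 2.59-fold more on average and no libraries overlapped. On day 5 GFP-positive libraries held 2595, 2272 and 2182 and GFP-negative libraries 4353, 3627 and 4241 normalized counts. There the GFP-negative cells had 1.73-fold more, again without overlap. The log2-fold-changes were 1.38 ± 0.16 and -0.79 ± 0.16, a change of the gate difference by -2.17 ± 0.23. Between the days its mean was 1.69-fold lower in GFP-positive and 2.65-fold higher in GFP-negative cells, without overlap of libraries in either.

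Sox1 values lay on the same sides as those of Sox21. On day 5 it held 1771, 1402 and 1648 normalized counts in GFP-positive and 3499, 3384 and 3898 in GFP-negative cells, 2.24-fold more in the latter, while on day 4 it was 1.27-fold higher in GFP-positive cells. The libraries of the gates did not overlap on either day. The day 5 difference of -1.16 ± 0.36 passed (adjusted p = 0.0309), and it missed the threshold in each of 6 fits without 1 of its libraries (adjusted p = 0.0554 to 0.105). On day 4 the difference of 0.34 ± 0.36 did not pass (adjusted p = 0.636). The change between the days, -1.51 ± 0.51, did not pass in the fit of all libraries (adjusted p = 0.227), and did when only the 4 sorted groups were fitted (adjusted p = 0.000189). Without day 0 replicate 1 it was at the edge (adjusted p = 0.0505).

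Among the SoxC genes and Sox9 the largest gate difference was 0.48, that of Sox9 on day 4. Sox12 was higher in GFP-positive cells of day 5, at 8379, 9818 and 8280.0 against 7372, 6931 and 5723 normalized counts, and its difference of 0.41 ± 0.13 passed narrowly (adjusted p = 0.0393). Of 6 fits without 1 of these libraries, it passed only in that without day 5 GFP-negative replicate 1 (adjusted p up to 0.222 in the rest). Sox4 held 8779, 8979 and 9614 against 7198, 8029 and 8474 on day 5, without overlap as deposited, a difference of 0.21 ± 0.26 (adjusted p = 0.695). For Sox11 the day 4 difference was 0.44 ± 0.21 (adjusted p = 0.175), and 0.21 without day 4 GFP-negative replicate 3, which held 9536 normalized counts against 16196, 18482 and 19209.5 in the GFP-positive gate. Sox9 differed by 0.48 ± 0.25 on day 4 (adjusted p = 0.242) and overlapped on day 5, when the difference was 0.04 ± 0.25 (adjusted p = 0.948). When only the day 4 libraries were fitted, that of Sox9 passed (adjusted p = 0.00711).

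**Figure D3:**
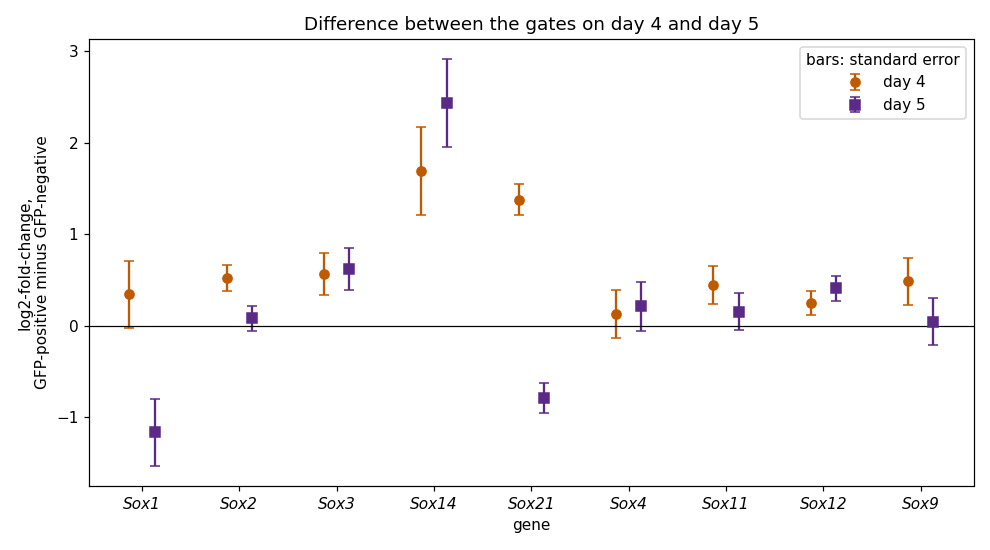
Difference between GFP-positive and GFP-negative cells (log2-fold-change, vertical axis) of each of the 9 Sox genes on day 4 (circles) and day 5 (squares), with bars for the standard error. Sox21 and Sox1 lie above 0 on day 4 and below 0 on day 5, Sox14 is the highest on both days, and Sox3 stays at about the same height.

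Besides Sox21, 2 of 8 members passed between the gates on day 4, Sox2 and Sox14, both higher in GFP-positive cells, against 4.43% of all genes, and none was called, against 3.96% in either direction. On day 5, 3 of these 8 passed: Sox14 and Sox12 were higher (3.78% of all genes) and Sox1 was lower (12.3%), and Sox14 alone was called, against 5.01% in either direction. Of the change of the gate difference between the days none of the 8 passed, against 1.10%, or was called, against 0.109%, and 2 (Sox1, Sox2) had an unadjusted p under 0.05. The libraries of 6 of 9 members did not overlap on day 5, 4 of them higher in GFP-positive cells (16.0% of all genes) and 2 lower (20.8%), Sox21 included by choice. After quantile normalization 5 of 9 did not overlap, 3 of them higher, and Sox4 did.

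From day 4 to day 5, 1 of the 8 members besides Sox21 passed within a gate. In GFP-positive cells Sox2 fell by 0.64 on the log2 scale (adjusted p = 0.00344), from 12316, 12008 and 11038 to 7888, 7115 and 7689 normalized counts, and was the only one of 8 to pass, against 9.80% of all genes. In GFP-negative cells none of 8 passed by limma, against 10.2%, and 1 (Sox1) had an unadjusted p under 0.05. None of 8 was called in either gate, against 1.49% of all genes within the GFP-positive gate and 1.27% within the other. Sox1 moved in opposite ways in the gates, without overlap of libraries between the days in either. In the GFP-negative gate it went from 1942 to 3594 on average (0.89 ± 0.36, adjusted p = 0.137, and 0.0399 without day 0 replicate 1). In the GFP-positive gate it went from 2459 to 1607 (-0.62 ± 0.36, adjusted p = 0.384).

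The order of the groups by level differed from gene to gene. For Sox1 it ran from day 2 and day 1, which overlapped, through day 3, day 0, day 5 GFP-positive, day 4 GFP-negative and day 4 GFP-positive to day 5 GFP-negative, and no neighbours after day 1 overlapped. The order of Sox21 was day 3, day 2, day 1, day 0, day 4 GFP-negative, day 5 GFP-positive, day 4 GFP-positive and day 5 GFP-negative, with overlap only between the last pair. Sox3 ran from day 0 to day 3 and then through day 4 GFP-negative, day 5 GFP-negative and day 4 GFP-positive to day 5 GFP-positive, with overlap between days 2 and 3 and between day 3 and day 4 GFP-negative. In Sox2 day 0 was the highest and day 5 GFP-negative the lowest, and only the neighbours day 3 and day 4 GFP-positive did not overlap. Sox14 peaked on day 3 and Sox9 and Sox11 in day 4 GFP-positive cells, though for Sox9 and Sox11 the sorted groups overlapped as neighbours. Sox4 and Sox12 were highest in day 5 GFP-positive cells, which did not overlap with the next group, day 4 GFP-positive.

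Levels of different genes can be compared only per length, here as normalized counts per kb of the longest annotated transcript, and their order turned with the length used. Per kb of transcript Sox2 was the highest member in every group, from 6792 ± 1040.0 on day 0 to 3677 ± 195 in day 5 GFP-positive cells. On that scale Sox14 was the lowest except on day 2, when Sox1 was (9.38 ± 2.22), and on day 3, when Sox21 was (19.3 ± 2.41). In day 4 GFP-positive cells Sox3 (2316 ± 74.1) and Sox11 (2161 ± 189) followed Sox2 (5730.4 ± 324), and Sox12 (1766 ± 52.3), Sox4 (1709 ± 104), Sox21 (1048 ± 51.2) and Sox1 (509 ± 22.9) came next, before Sox9 (461 ± 35.2) and Sox14 (9.69 ± 3.01). Per kb of coding sequence, a length chosen after seeing the data, Sox2 was the highest on days 0 to 3 only, and Sox11 was in all 4 sorted groups. In day 4 GFP-positive cells Sox11 then stood at 15119.9 ± 1324 and Sox2 at 12278.5 ± 695, and Sox12 (8323 ± 247) and Sox4 (6195 ± 376) lay above Sox3 (3535 ± 113). The lowest was then Sox9 on day 2 (27.7 ± 2.86) and Sox14 in every other group.

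Within the SoxB1 group, the make-up of the summed level per kb went from nearly all Sox2 toward Sox2 and Sox3 together. Sox2 made up 97.3% ± 0.488 of the sum in stem cells and 96.3% ± 0.929 a day later. Its share was down to 81.2% ± 0.955 by day 2 and 77.9% ± 5.4 by day 3. Among sorted cells the GFP-negative gate had 66.9% ± 4.87 and the GFP-positive gate 66.9% ± 1.62 at day 4, and these shares were 57% ± 3.94 and 53.4% ± 1.13 a day later. Sox3 went from 1.49% ± 0.599 in stem cells to 41.8% ± 0.925 in the GFP-positive gate of day 5, where its share ranged over 41% to 42.8% against 27.2% to 35.4% in the GFP-negative libraries. Sox1 made up 12.2% ± 0.94 in day 5 GFP-negative and 4.81% ± 0.219 in day 5 GFP-positive cells. With no length correction the Sox1 shares were 24.5% and 10.6%, and with coding length in place of transcript length 22.8% and 9.99%. Per kb of transcript the gates of day 5 had overlapping shares of Sox2 and non-overlapping shares of Sox1 and Sox3, a description with no test, since 3 against 3 libraries cannot give an exact p under 0.10.

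**Figure D4:**
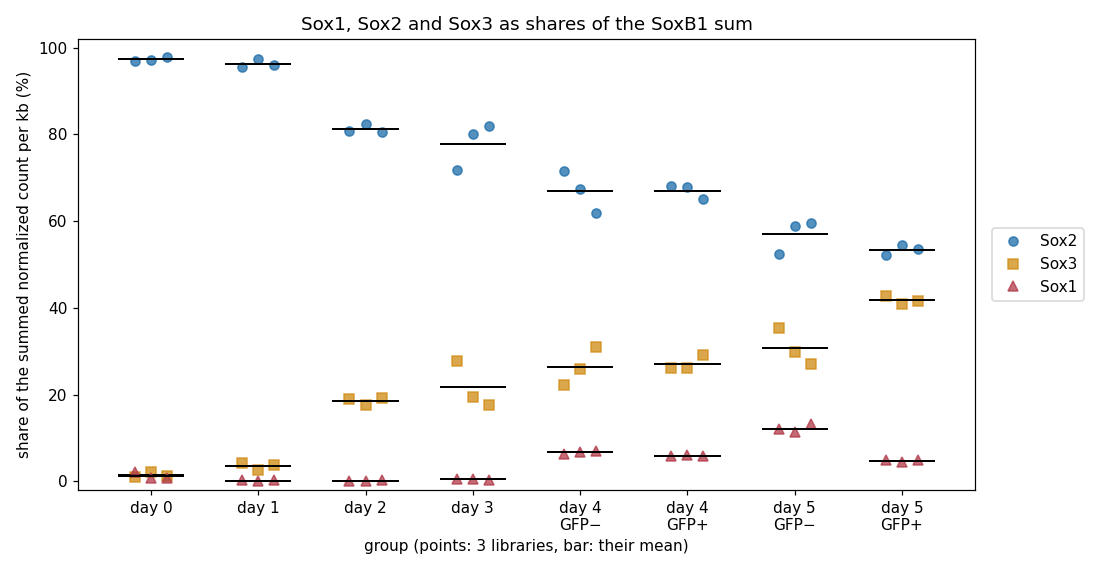
Share (%) of Sox2 (circles), Sox3 (squares) and Sox1 (triangles) in their summed normalized count per kb of transcript, by group; points are libraries, bars means of 3. Sox2 goes from 97.3% on day 0 to 53.4% in day 5 GFP-positive cells, and the Sox1 share is highest, at 12.2%, in day 5 GFP-negative cells.

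The sum of the SoxB1 genes per kb of transcript moved less than its parts. It was 6986 ± 1098 on day 0, 5224 ± 337 on day 2, 8555 ± 284 in day 4 GFP-positive and 6897 ± 503 in day 5 GFP-positive cells. The SoxC sum per kb, by contrast, started at 1617 ± 410 in stem cells and had reached 3809 ± 216 by day 3. The GFP-positive gates held 5637 ± 339 at day 4 and 5745 ± 222 at day 5, and the GFP-negative gates 4678 ± 254 and 4831 ± 280. Per kb of transcript the SoxB1 sum was thus the larger in these sorted GFP-positive cells, and per kb of coding sequence the SoxC sum was, at 29638 ± 1917 against 17904 ± 683 on day 4 and 29250.0 ± 1123 against 13652 ± 988 on day 5.

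Of the transcripts that overlap the members, Gm4675, Sox1ot and Sox2ot were followed as well, and Gm26735 was not analysed here. The antisense Gm4675 was at 3.49 normalized counts on average on day 3, 107 against 51.5 in the GFP-positive and GFP-negative gates of day 4, and 94.1 against 146 in those of day 5. It was thus higher in the same gate as Sox21 on each day, at a small fraction of its level, and was the gene most alike to Sox21 over the 8 group means (Pearson's r = 0.995 among 14491 genes compared). Gm4675 and Sox21 share 685 words on opposite strands, where reads may not be told apart, as given above. The part of such reads in this likeness was not tested. Sox1ot, which runs across the Sox1 locus on the same strand, held 177 ± 28.1 in day 4 GFP-positive and 106 ± 12.3 in day 4 GFP-negative cells, a difference of 0.73 ± 0.21 (adjusted p = 0.0222). On day 5 it held 163 ± 13.9 and 202 ± 37.4, and the difference of -0.29 ± 0.21 did not pass (adjusted p = 0.439). It rose from day 3 to day 4 GFP-positive cells by 1.53 ± 0.21 (adjusted p = 5.69e-06). Sox2ot, which spans Sox2, stayed between 48.8 and 101 on average in all groups and did not pass between the gates on either day (adjusted p = 0.357 and 0.631).

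By Pearson's r over the 8 group means on the log2 scale, the 3 genes most alike to each member were as follows. Sox1 had Pcdhgb7 (0.996), Pmp22 (0.990) and Zfp267 (0.983). Sox2 had Arntl (0.994), Slc10a7 (0.979) and Gm48643 (0.956). Sox3 had Prkab1 (0.998), Atxn1l (0.997) and Camk2g (0.996). Sox14 had Lsm14b (0.960), Acrbp (0.957) and Dcaf8 (0.949). Sox21 had Gm4675 (0.995), Rccd1 (0.985) and Spin4 (0.983). Sox4 had Brd3 (0.991), Zfp871 (0.987) and Prkd3 (0.987). Sox11 had Heph (0.998), Ttyh3 (0.998) and Bcl9 (0.996). Sox12 had Ctdsp1 (0.993), Prkag2 (0.990) and Maneal (0.989). Sox9 had Pde3b (0.997), Mettl9 (0.997) and Uhrf2 (0.997). These are descriptions over 8 points, among 14491 genes compared (14492 for Sox14) whose highest group mean was at least 100.

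Among 8 listed partner and network factors, Pou5f1, the partner of Sox2 in stem cells, held 36698 ± 1392 normalized counts in stem cells and 23213 ± 5027 by day 3. It was at 76.7 ± 11.3 in the GFP-positive gate of day 5, where Sox2 still held 7564 ± 401. Pou5f1 fell from day 3 to day 4 GFP-positive cells by 4.89 on the log2 scale (adjusted p = 1.96e-14). Pax6, the eye field and progenitor factor that joins Sox2 on lens and neural enhancers, rose at that step by 5.91 ± 0.24 (adjusted p = 9.29e-14). The neural POU factors that pair with SoxB1 proteins were lower in the GFP-positive gate of day 5, with log2-fold-changes of -3.06 ± 0.42 for Pou3f2 and -2.59 ± 0.29 for Pou3f3, both called. On that day 2 of the 8 factors passed higher and 6 lower, and on day 4 the counts were 1 and 4, against 3.78% and 12.3%, and 4.43% and 11.3%, of all genes.

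Of 10 listed progenitor genes known as targets or companions of SoxB1 proteins, 9 were in the table (Blbp is another name of Fabp7), and 7 rose and none fell from day 0 to day 3, against 21.1% and 22.6% of all genes. From day 3 to day 4 GFP-positive cells 7 rose and 1 fell, against 17.1% and 20.9%. Cdh2, the neural cadherin, rose by 2.88 ± 0.17 and the Notch ligand Dll1 by 2.25 ± 0.13 at that step, and the fatty acid binding protein gene Fabp7 fell by 3.50 on the log2 scale. Dll1 was lower in GFP-positive than GFP-negative cells on day 5 (-0.84 ± 0.13, adjusted p = 6.19e-05). Of the 8 genes listed as companions of SoxC proteins 3 rose and 3 fell from day 0 to day 3, against 21.1% and 22.6% of all genes. From day 3 to day 4 GFP-positive cells 4 of these rose and 2 fell, against 17.1% and 20.9%. Of the 6 young-neuron markers 1 rose and 2 fell at that step (median -0.67), against the same shares. To day 4 GFP-negative cells 2 of the 8 companions rose and 1 fell, against 9.49% and 9.01%. Tubb3, a neuronal tubulin gene, rose by 1.48 ± 0.12 and Insm1 by 2.04 ± 0.31, while Elavl3 fell by 1.09. Within GFP-positive cells 4 of the 8 fell and none rose from day 4 to day 5, against 5.24% and 4.57%.

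Most of the other Sox genes were lower in the GFP-positive gate of day 5. Of 11 listed, Sry did not pass the filter on low values, and 10 were tested. On day 5, 6 of 10 were lower in GFP-positive cells and none higher, against 12.3% and 3.78% of all genes. Log2-fold-changes were -4.12, -4.44 and -4.17 for Sox7, Sox17 and Sox18, of endoderm and endothelium, -2.62 for Sox10, of neural crest, -2.96 for the stem cell gene Sox15, and -1.07 for Sox13. On day 4, 3 were lower (Sox7, Sox15 and Sox17), against 11.3% of all genes, and 2 were higher, against 4.43%: the SoxD genes Sox5 and Sox6, by 1.94 ± 0.53 and 2.68 ± 0.42. Sox5 and Sox6 also rose by 4.39 and 4.44 from day 3 to day 4 GFP-positive cells. Sox18 was at 9.27 ± 1.28 in day 4 GFP-negative and 8.7 ± 2.51 in day 4 GFP-positive cells and at 93.5 ± 13.3 and 4.6 ± 2.3 on day 5, and its gate difference changed by -4.06 ± 0.47 (adjusted p = 9.64e-05).

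**Figure D5:**
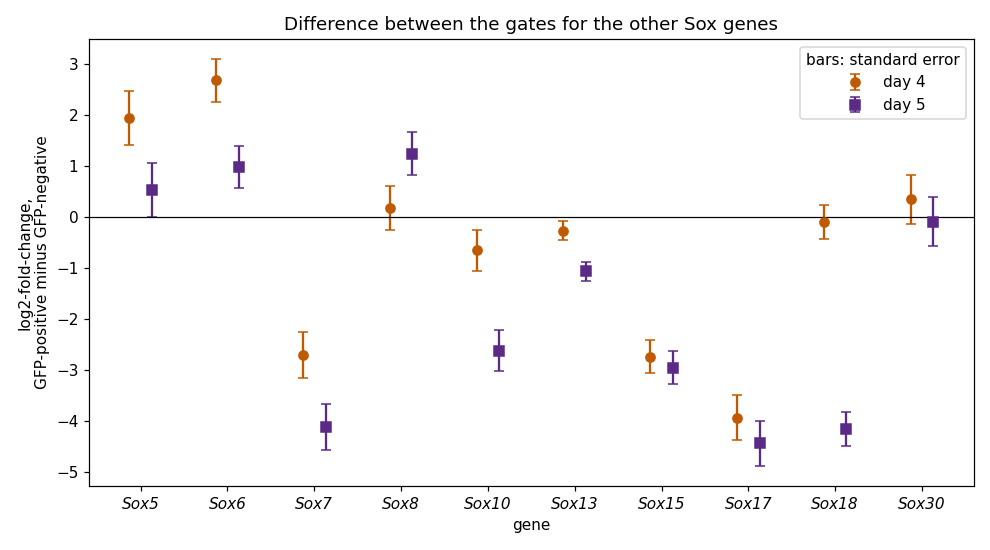
Difference between GFP-positive and GFP-negative cells (log2-fold-change, vertical axis) of the 10 tested Sox genes outside groups B and C and Sox9, on day 4 (circles) and day 5 (squares), with bars for the standard error. Sox5 and Sox6 lie above 0 and Sox7, Sox15 and Sox17 far below it on both days, and Sox18 lies near 0 on day 4 (-0.11) and at -4.17 on day 5.

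Markers of other cells moved with the gates beside all the differences above. The summed level of 8 pluripotency markers was 16821 to 20727 normalized counts in day 4 GFP-negative and 1508 to 3200.2 in day 4 GFP-positive libraries, and 7458 to 9007 and 520.5 to 672 on day 5. All 8 were called lower in GFP-positive cells on both days, against 3.96% of all genes called in either direction on day 4 and 5.01% on day 5. On day 4 the sums were 2439 to 3656 against 113 to 293 for 6 endoderm markers, 6152 to 9791 against 341 to 809 for 6 mesoderm markers and 1506 to 1970.4 against 407 to 558 for 6 neural crest markers. Sums of the endoderm markers were 3347 to 4286 against 177 to 317 on day 5, those of mesoderm markers 3216 to 3679 against 786 to 916 (Kdr alone 1174 ± 274 against 693 ± 69.9), those of neural crest markers 1823 to 2483 against 355 to 529.8, and those of 5 endothelial markers 518 to 843 against 82.4 to 226. Of the endoderm markers 5 of 6 were lower on each day, of the mesoderm markers 6 on day 4 and 5 on day 5, all but Kdr, and of the neural crest markers 4 and 5, with none higher, against 11.3% and 12.3% of all genes lower. The 4 endothelial markers tested were all lower on both days, against the same shares of all genes. Stem cells held them too, with Pecam1 at 3232 ± 1326 and Tek at 308 ± 47.2 on day 0. In day 4 GFP-negative cells these 2 were at 305 ± 45.5 and 61.8 ± 9.84. From day 3 to day 4 GFP-negative cells 2 of the 4 fell and none rose, against 9.01% and 9.49% of all genes. No marker in these lists was at 0 in all libraries of a sorted group. Sums of 6 neural progenitor markers, Sox1 among them, were 28026 to 29313 in GFP-negative and 37499.5 to 47727 in GFP-positive libraries of day 5. Of these 6 genes 1 passed higher (Pax6, 1.83) and 2 lower (Fabp7, -2.77, and Sox1), with a median of -0.46, against 3.78% and 12.3% of all genes. Sums of 6 young-neuron markers, of which 1 passed higher and 3 lower against the same shares of all genes, were 3303 to 3776 and 2682 to 2724. Sox2 is expressed in stem cells as well as progenitors, and Sox9 in crest and cartilage. For the cartilage list of 4 genes, the sums of day 5 were 9156 to 10528 and 10574 to 14026, nearly all of it Col2a1 (9436 ± 723 and 11969 ± 1734), which the neural tube also expresses. Matn3 was at 186 ± 27.2 in GFP-negative and 160.4 ± 8.65 in GFP-positive cells, Matn1 at 29.9 ± 3.71 and 3.11 ± 2.28, and Acan at 22.1 ± 5.14 and 14.9 ± 1.91. The 4 surface ectoderm markers summed to 7319 to 11600.3 and 2990.3 to 3182 in the GFP-negative and GFP-positive libraries of day 5. Trp63 did not pass the filter on low values. Of the 3 tested, 2 were lower and none higher on day 5, against 12.3% and 3.78% of all genes. Epcam, 1 of these 3, was also high in stem cells, at 7502 ± 796 on day 0 against 1279 ± 122 in day 5 GFP-negative cells. The part of such cells in the gate differences of the Sox genes was not tested.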

How the data were processed

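PolyA RNA of 24 libraries in 8 groups of 3 was sequenced. The authors pseudo-aligned reads with kallisto 0.43.1 (mm10 in the submitters' processing notes), summed the estimates per gene and divided them by DESeq2 factors. The deposited values are therefore a normalized signal, called normalized counts here, and not whole reads: 45.6% to 76.9% of values of up to 20 reads lay within 0.1 of a whole multiple of 1 read, so no count model was used. Their index was made of Ensembl coding regions and non-coding RNAs, so per-kb values depend on the length taken. Whether it held UTRs, and whether counting used strand, is not given in the sources used here. Library totals were 39849111 to 51587535, and low values are limited by counting error.

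Groups and replicates followed the sample labels, and the samples are described as biological triplicates. With 3 libraries against 3 an exact permutation test cannot go below 0.10, so none was run. limma 3.58.1 in R 4.3.3 was fitted to group means of log2(value + 1), with moderation of the variance along its trend with the mean. The 21005 genes tested had 10 or more in 3 or more libraries, and p-values were adjusted over all of them by Benjamini-Hochberg, contrast by contrast. Scripts were tested on simulated data. Per-kb levels and shares used the longest GENCODE M21 transcript, or its coding length as an alternative, with Python 3.11.15, numpy 2.4.6, pandas 2.3.3 and matplotlib 3.10.9.

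The text names the 9 members, genes of lists of Sox relatives, partners, companions and cell type markers, and the 3 genes most alike to each member. Gm4675, Gm26735 and the k-mer overlaps were added after the annotation was read. Members and lists were chosen with earlier results of these data known. Alternatives were other pseudocounts, filters, normalization, fits and left-out libraries.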

Additional observations from a re-analysis of the deposited data

Results flagged for a closer look

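A gate difference that changed from day 4 to day 5 was the reason for listing 6 genes. They came from the members and the lists of other Sox genes, partners and companions, and the lists of cell type markers were left out. Sox21 changed by -2.17 ± 0.23 on the log2 scale, with every GFP-positive library above the GFP-negative ones on day 4 and below them on day 5, a difference that was not tested because it was part of the choice of genes. Sox1 changed by -1.51 ± 0.51 with the same pattern of libraries (adjusted p = 0.227 by limma). Sox18 changed by -4.06 ± 0.47 (adjusted p = 9.64e-05), from the level of single-digit counts in both gates of day 4 to 93.5 ± 13.3 normalized counts in GFP-negative cells of day 5. Among the listed companions and partners, Dll1, a Notch ligand gene, changed by -1.14 ± 0.18 (adjusted p = 0.00206), and the POU factor genes Pou3f1 by -1.08 ± 0.26 (adjusted p = 0.044) and Pou3f3 by -1.71 ± 0.41 (adjusted p = 0.0422). Among the mesoderm markers left out of this listing, Kdr and Tbx6 passed in the other direction. Kdr changed by 2.61 ± 0.58 (adjusted p = 0.0255) and Tbx6 by 1.63 ± 0.38 (adjusted p = 0.0334). The endothelial marker Cldn5, also left out, passed with a change of -2.63 ± 0.53 (adjusted p = 0.0121). The 6 listed genes, all with a negative change, thus do not show the direction of all genes looked at. Of all genes, 1.10% passed this test. Groups of 3 libraries are too small for a test of single outlying libraries.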

How the results depend on the processing

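Over the alternatives run, 1349 of 1440 log2-fold-changes of the 9 genes kept their direction and their side of an adjusted p of 0.05, 48 no longer passed, 19 newly passed and 24 changed sign. The changes of Sox21 in sorted cells of days 4 and 5 are descriptions and are not counted here, nor in the called members. Counts of called members kept within 1.5 times of the reported value in 151 of 169 cases. From day 0 to day 1 the count of 2 became 1 with a pseudocount of 5 or no filter on low values and 0 when only those groups were fitted, and leaving out 1 library each gave 1 to 3. Between the gates of day 5 the count of 1 became 0 with a pseudocount of 0.5, no filter or only the groups compared, and leaving out 1 library gave 0 to 1. For the change of the gate difference the count of 0 became 1, Sox1, when only the sorted groups were fitted. The cause was not tested. The share of Sox2 in the SoxB1 sum was 95.7% on day 0, 61.3% and 61.9% in GFP-negative and GFP-positive cells of day 4, and 48.9% and 50.04% of day 5 with no length correction, where the order of the day 5 gates turned. It also turned with coding length, an alternative chosen after seeing the data, which gave 55.7% and 57.8% for these gates, 96.6% for day 0 and 85.6% for day 2.

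Small changes that did not pass changed sign. Under quantile normalization the day 5 gate differences of Sox2 and Sox9 became -0.0111 and -0.0161. Leaving out 1 library each gave ranges from day 0 to day 1 of -0.22 to 0.0061 for Sox2, -0.20 to 0.11 for Sox12 and -0.41 to 0.21 for Sox9, of -0.86 to 0.0698 for Sox1 from day 1 to day 2, and of -0.0031 to 0.20 for Sox2 from day 2 to day 3. They were -0.0116 to 0.15 for Sox12 from day 3 to day 4 GFP-negative cells, and -0.13 to 0.25 for the day 5 gate difference of Sox9. From day 4 to day 5 in GFP-negative cells they were -0.84 to 0.0473 for Sox14, -0.16 to 0.22 for Sox11, -0.0708 to 0.11 for Sox12 and -0.0182 to 0.14 for Sox9, and -0.0303 to 0.15 for the change of the gate difference of Sox3.

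The labels do not say that a replicate number marks a shared pool, also between the gates of a day. Same-numbered replicates had a mean r of -0.0005 over 28 pairs of groups, and every r was over 0.1 in 1 pair, day 3 and day 5 GFP-negative cells (lowest 0.133). With a replicate block 94 of 94 changes and 11 of 11 counts stayed on the same side, for example 2 called from day 0 to day 1 and 5 from day 0 to day 3. Count models were not run, since whole reads could not be recovered. Low counts limit Sox14 in all groups and Sox9 up to day 2.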
